A study of Mus musculus with 4 samples.

Results

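Cluster 0 is the group of immune cells that the authors' deposited cell table numbers 0 among the 19 clusters of all sorted CD45+ cells from mouse tumours. Its members were taken by that number alone and matched to the 4 count matrices by library and cell barcode. All 2319 listed members were found, out of 14491 listed cells with a matrix column. Wild-type 129S6 mice carried transplanted tumours and received 200 µg of antibody into the peritoneum on days 3, 6 and 9: the rat IgG2a isotype antibody (control), anti-PD-1 of clone RMP1-14, anti-CTLA-4 of clone 9D9, or both of the latter (combination). Tumours were digested with collagenase, live CD45+ cells were sorted to a purity above 96%, and 3′ ends were counted with unique molecular identifiers (UMIs) on the 10x Genomics Chromium platform. Each antibody group is 1 library. The sources used here do not give how many mice were pooled, their ages or the tumour line. No spread between animals can therefore be computed, no test was run, and antibody, library and batch cannot be told apart. The intervals below are exact 95% intervals that cover counting error only.

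Classical monocytes are made in the bone marrow, leave it with the help of the chemokine receptor Ccr2, and enter inflamed tissue and tumours, where they can become macrophages or dendritic cells. In mice they are recognised by surface Ly6C, encoded by Ly6c1 and Ly6c2, and by transcripts such as Plac8 and Ms4a4c. Interferon-γ from T cells and NK cells acts on such cells, in part through the transcription factor Irf1, and switches on immunity-related GTPases (Irgm1, Igtp, Iigp1) and guanylate-binding proteins (the Gbp genes), which attack the vacuoles of intracellular microbes. Type I interferons act on many of the same genes through promoter sequences called interferon-stimulated response elements (ISRE).

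The cluster held 511 cells of the control library, 896 of the anti-PD-1 library, 644 of the anti-CTLA-4 library and 268 of the combination library, with 1666558, 2730369, 1962546 and 720767 UMIs in that order. Its median cell had 3050, 2883, 2988 and 2696 UMIs, against 4296, 3688, 3370 and 3253 in the other myeloid clusters, which are clusters 1, 2, 4, 7 and 15. The combination values therefore rest on the fewest cells and molecules. Barcodes shared between libraries were few, with 8 members matching a member of another library and 43 matching any listed cell of another library. Over all listed cells, 218 had a barcode found in more than 1 library. Levels are given as CPM, a gene's UMIs in the cluster and library scaled to a total of 1000000, which measure 3′ ends and are compared between cells, not between genes.

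The markers given with the cluster were all high in it, which describes the cluster and is no independent support for its name. Pooled over the libraries, Plac8, a small cysteine-rich protein of myeloid cells, stood at 3242 CPM in cluster 0 and at 487 to 2436 CPM in the other myeloid clusters. Ifitm3, an interferon-induced membrane protein that blocks viral entry, reached 4397 CPM and Iigp1 reached 681 CPM, in both cases the highest level among the 19 clusters. Plac8, Ms4a4c, Ly6i and Ccr2 ranked second and Ly6c2 was the third. A UMI of Ifitm3 was found in 98.5% of the 2319 cells, of Plac8 in 94.2%, of Ms4a4c in 84.9%, of Ly6i in 81.5%, of Ly6c2 in 65.9% and of Iigp1 in 56.6%. Among the 10 genes with the highest fold over all other listed cells (Gm9733, Gpr141, Gm4841, Il1r2, Ms4a4c, Klra2, Plac8, Hp, Iigp1 and Rnase6), 3 are on the classical monocyte list and 1, Il1r2, is on the neutrophil list. Ms4a4c and Plac8 are also among the given markers, and the name monocyte-like is used with limits. Of 13 neutrophil markers, 3 to 5 had 0 UMIs in each library, Ly6g and Stfa2 among them in all 4, and the rest were detected. The class II gene H2-Ab1 stood at 22478, 22065, 22875 and 22437 CPM in that library order, and C1qa, a complement gene typical of macrophages, at 1742, 1542, 1658 and 1132 CPM. Ly6c2 is no private marker in these tumours, since the lymphoid clusters held 598 to 706 CPM of it.

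**Figure D1:**
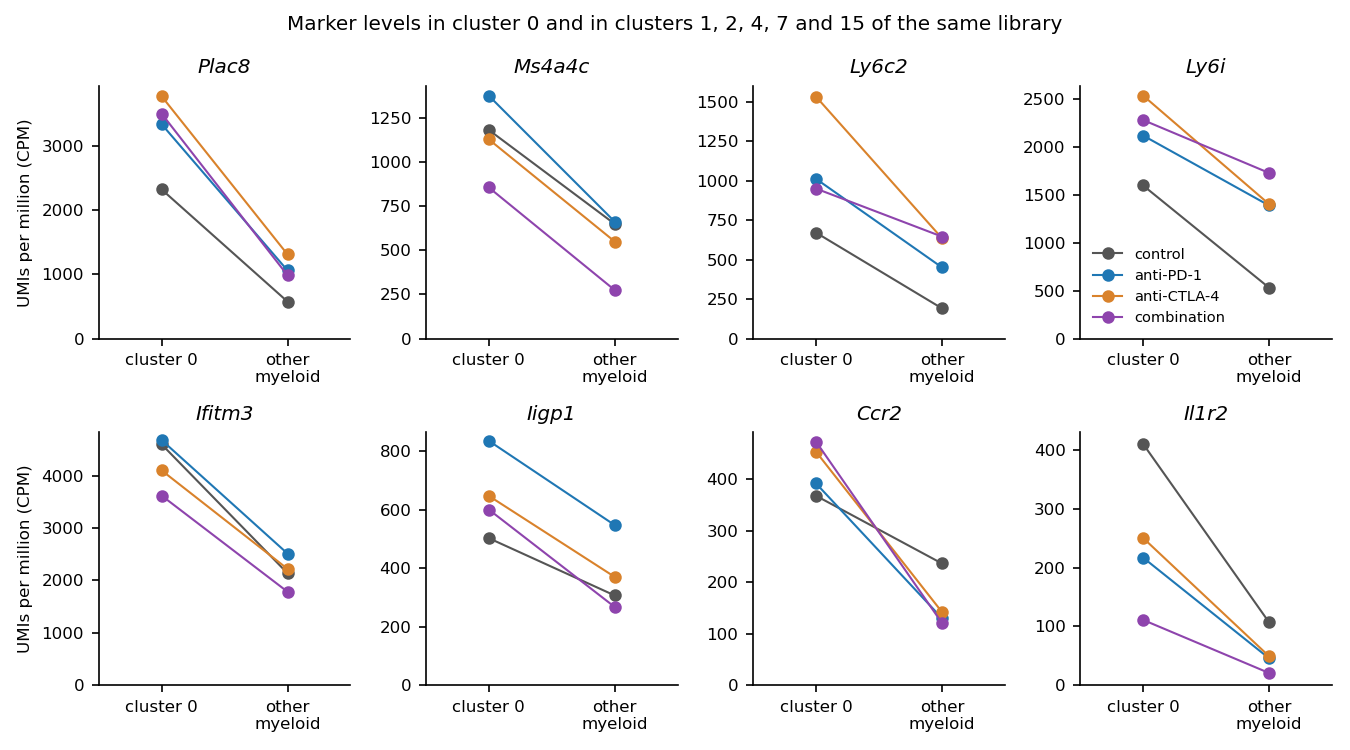
Level (CPM, linear axis from 0) of 8 genes in cluster 0 and in the other myeloid clusters pooled, with 1 line per library joining its 2 values. For all 8 genes every library has the higher value in cluster 0, and the Plac8 points of cluster 0 (2326 to 3780 CPM) lie above every point of the other myeloid cells (576 to 1312 CPM).

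The promoters of 3 interferon-inducible GTPase genes are shown because every measured gene of this family was higher in cluster 0 than in the other myeloid cells and higher in the anti-PD-1 than in the control library (values below). Each line gives the 250 bases before the RefSeq transcription start on build GRCm38.p6 (mm10), 5′ to 3′ on the gene's strand. Capitals mark matches to the ISRE core TTTCNNTTTC on either strand, which reads GAAANNGAAA on the other. Igtp lies on the plus strand at chr11:58199306-58199555, Irgm1 on the minus strand at chr11:48871421-48871670, and Gbp2 on the plus strand at chr3:142620413-142620662.
Igtp: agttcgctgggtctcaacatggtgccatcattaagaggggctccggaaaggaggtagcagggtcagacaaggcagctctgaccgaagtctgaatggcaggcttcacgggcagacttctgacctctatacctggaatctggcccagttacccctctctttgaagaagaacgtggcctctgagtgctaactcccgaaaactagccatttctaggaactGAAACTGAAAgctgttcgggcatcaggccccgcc
Irgm1: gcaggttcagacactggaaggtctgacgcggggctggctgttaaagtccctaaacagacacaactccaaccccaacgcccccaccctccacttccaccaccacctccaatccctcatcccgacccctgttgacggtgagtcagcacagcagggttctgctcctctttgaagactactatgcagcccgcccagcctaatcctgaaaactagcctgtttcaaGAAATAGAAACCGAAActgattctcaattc
Gbp2: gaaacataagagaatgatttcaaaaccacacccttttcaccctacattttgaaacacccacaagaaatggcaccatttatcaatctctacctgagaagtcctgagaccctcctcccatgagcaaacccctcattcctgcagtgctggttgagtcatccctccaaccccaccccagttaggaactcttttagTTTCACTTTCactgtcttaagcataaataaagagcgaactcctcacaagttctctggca
The match in Igtp lies 34 to 25 bases before the start, that in Gbp2 lies 59 to 50 bases before it, and Irgm1 carries a pair that overlap each other, 30 to 21 and 24 to 15 bases before it. Of 17 GTPase genes listed, 11 matched a promoter in the RefSeq table, and 10 of those 11 (90.9%) held the ISRE core, against 3.46% of the 27025 genes with a promoter of the same length. The interferon-γ activated site TTCNNNGAA occurred in 6 of the 11, against 8.13% of all genes. In Igtp it lies 45 to 37 bases before the start and does not overlap the ISRE match. Of the 6 marker genes, 4 matched a promoter (Plac8, Ms4a4c, Ly6c2 and Ifitm3) and 0 of these held either motif. Such matches describe these windows and show no binding.

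Against the other myeloid cells, cluster 0 carried more transcript of circulating-monocyte genes and GTPases and less of tissue-macrophage genes. The difference was taken as the log2 ratio of cluster 0 to clusters 1, 2, 4, 7 and 15 within each library and is given as the mean over the 4 libraries with its SD. Because these same genes shaped the clustering, this is a description and no test. Of 6582 genes with enough counts, 18.7% were higher in cluster 0 in all 4 libraries and 15% were lower in all 4 (33.7% together), while 0.79% were at least 2-fold higher and 2.6% at least 2-fold lower. The median gene stood at 0.02.

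Several monocyte genes were on the higher side, as was Il1r2, which is on the neutrophil list. Plac8 measured 2326, 3344, 3780 and 3509 CPM in cluster 0, in the library order given above and used throughout, against 576, 1061, 1312 and 986 CPM in the other myeloid cells, a mean log2 ratio of 1.76 ± 0.21 (SD, n = 4 libraries). No value of the second set reached the lowest of the first. Il1r2, the decoy receptor that binds interleukin-1 without signalling, measured 411, 217, 251 and 111 CPM against 107, 45.6, 49.0 and 20.5 CPM, a ratio of 2.25 ± 0.22. Ccr2 measured 368, 392, 453 and 473 CPM against 236, 130, 142 and 121 CPM, and its ratio ran from 0.64 in the control to 1.97 in the combination library. The ratio was 1.15 ± 0.34 for Ms4a4c, 1.20 ± 0.51 for Ly6c2, 0.86 ± 0.52 for Ly6i, 0.98 ± 0.11 for Ifitm3 and 0.83 ± 0.24 for Iigp1. Of 18 measured classical monocyte genes, 13 were higher in all 4 libraries, 1 was lower in all 4 and 7 were past 2-fold (median 0.89). The highest of them was Ifitm6, at 2.75. That list also holds the given markers Ly6c2, Plac8, Ms4a4c, Ly6i and Ifitm3, and the GTPase list holds Iigp1. Among genes at 50 CPM or more in every library, Gm9733 had the highest ratio, 2.41 ± 0.68, and Rnase6, Ifitm1 and Tspan13 were also among the 12 highest.

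All 16 measured GTPase genes were higher in cluster 0 in all 4 libraries, with a median of 0.76 and 1 gene past 2-fold. Cluster 7 taken alone was not lower in every library. With each cell thinned at random to 1000 UMIs, the mean cell held 2.95, 4.70, 3.34 and 3.25 GTPase UMIs in cluster 0 and 3.94, 4.77, 2.40 and 1.94 in cluster 7. The gene past 2-fold, Tgtp1, measured 47.4, 79.8, 52.0 and 73.5 CPM against 16.8, 23.3, 27.2 and 17.5 CPM. Gbp2 measured 334, 521, 347 and 350 CPM against 143, 297, 229 and 188 CPM, a ratio of 0.88 ± 0.26. Type I interferon-induced antiviral genes were less uniform, with 11 of 28 higher in all 4 libraries, 5 lower and a median of 0.27. Of 10 genes of the interleukin-1 family and inflammasome, 7 were higher in all 4 and 0 lower (median 0.49). Il1b itself, the inflammatory cytokine, had a ratio of 0.90 ± 0.32. Class II genes were close to those of the other myeloid cells (7 of 11 higher in all 4, median 0.18), and H2-Ab1 differed by 0.15 ± 0.05. Immediate early and digestion-induced genes were also higher, 12 of 16 in all 4 libraries with a median of 0.44. Fos had a ratio of 0.71 ± 0.12. The part that the enzymatic digestion plays in this list was not tested.

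Most macrophage markers were on the lower side. Of 19 measured macrophage markers, 17 were lower in cluster 0 in all 4 libraries and 14 of them by at least 2-fold (median -1.62). Ccl8, a monocyte-attracting chemokine made by tissue macrophages, measured 221, 798, 633 and 248 CPM against 4890, 25358, 15217 and 6657 CPM, a ratio of -4.69 ± 0.23. Lymphoid clusters held 279, 588, 184 and 286 CPM of Ccl8 in the same libraries, so cluster 0 lay below those cells, which should lack the gene, in the control and combination libraries and above them in the other 2. Ratios were -4.27 ± 0.97 for Pf4, -3.84 ± 0.79 for Ccl7, -2.67 ± 0.15 for Apoe, which carries lipid, -2.78 ± 0.27 for Arg1, which degrades arginine, and -1.30 ± 0.21 for C1qa. Of 17 lysosome and lipid genes, 13 were lower in all 4 libraries and 11 past 2-fold (median -1.37), including the lysosomal membrane protein Cd63 at -3.33 ± 0.28. Of 16 chemokine genes, 9 were lower in all 4 and 2 higher (median -0.63). Proliferation genes were lower against this pooled set, 6 of 11 in all 4 libraries (median -0.82). Cks1b, the gene at that median, stood at 439 CPM in cluster 15 of the set and at 15.4 CPM in cluster 0, pooled over libraries. The list median was 0.021 after thinning to 1000 UMIs and 0.25 against cluster 4 alone. The lower values are therefore not read as a trait of cluster 0.

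Several of these differences were small or turned against cluster 4 alone. When cells were reassigned to the nearest cluster average, with libraries weighted equally, cluster 4 took 39, 96, 67 and 33 members of cluster 0, more than any other cluster. With averages from the control library alone it took 27, 80, 74 and 34, and cluster 7 took more in the control and anti-PD-1 libraries (36, 103, 35 and 16). Pooled over libraries, Ly6c2 stood at 1069 CPM in cluster 0 and 1026 CPM in cluster 4, and Ly6i at 2127 and 2948 CPM. The mean log2 ratio of cluster 0 to cluster 4 was 0.03 for Ly6c2, -0.50 for Ly6i, 0.06 for Il1b, -0.25 for C1qa and -0.27 for Ccl8. Ratios stayed above 1 for Il1r2 (2.23), Ccr2 (1.49), Ms4a4c (1.43) and Plac8 (1.33). Pooled, the alternative-activation genes Arg1 and Chil3 stood at 266 and 256 CPM in cluster 0 and at 2792 and 1288 CPM in cluster 4. Cluster 7 lay near cluster 0 in Ms4a4c (1349 against 1209 CPM) and Ifitm3 (4260 against 4397 CPM) but held 4407 CPM of Ccl8 against 561 CPM.

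Members were not uniform. Each cell was thinned at random to 1000 UMIs so that depth would not decide what was detected, which left 510, 867, 633 and 256 cells and left out 1, 29, 11 and 12 shallower ones. The median cell then held 5, 8, 8 and 7 UMIs of 5 monocyte genes (Ly6c2, Plac8, Ms4a4c, Ly6i and Ccr2) and 2, 1, 1 and 1 UMIs of 5 macrophage genes (C1qa, C1qb, C1qc, Apoe and Mrc1). Monocyte UMIs outnumbered macrophage UMIs in 62.5%, 69.3%, 73.1% and 73.4% of cells. The same share was 3.73% to 7.29% in cluster 1, 49.1% to 61.2% in cluster 4 and 55.7%, 68.6%, 67.8% and 58.7% in cluster 7, whose range overlaps that of cluster 0. A C1q transcript was nonetheless found in 60%, 55.1%, 55.9% and 45.3% of members after thinning. For C1qb alone the share was 52.4%, 48.9%, 48.8% and 42.2%, against 12.6%, 10.5%, 6.15% and 6.78% of cells in the T cell clusters, which should lack the gene. Ly6c2 and a C1q gene were seen in the same thinned cell in 21.0%, 24.2%, 31.9% and 18.4% of members. Across cells, Pearson's r between the 2 sums was -0.16, -0.21, -0.20 and -0.07, a weak relation of sparse counts that is given as a description only.

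**Figure D2:**
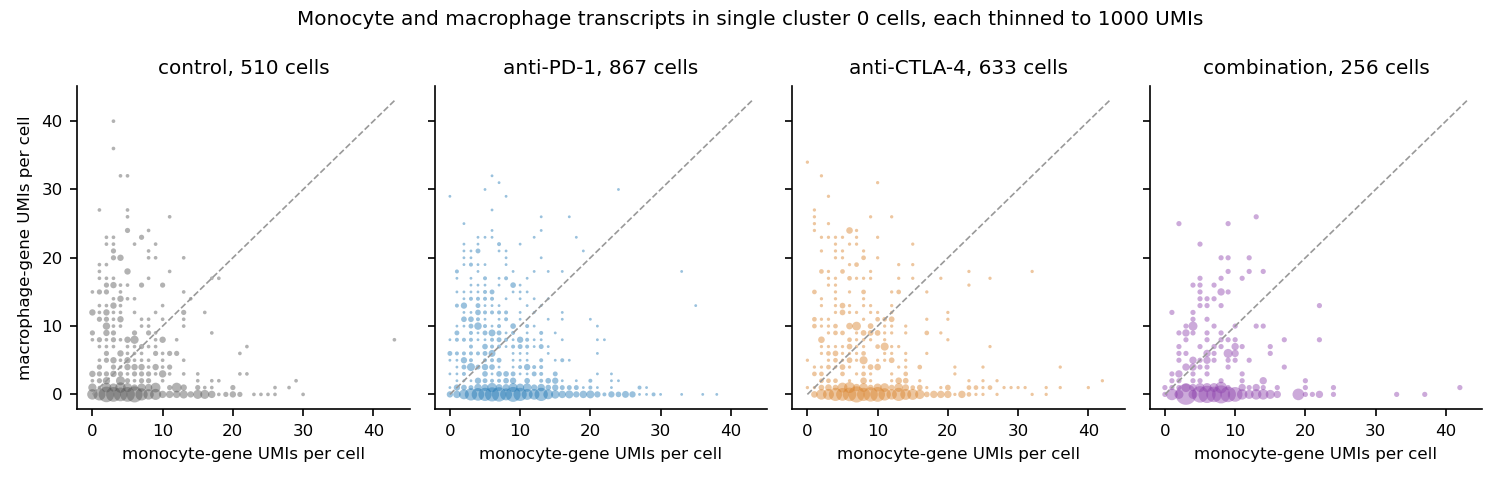
Cluster 0 cells of each library placed by their UMIs of 5 monocyte genes (x axis) and 5 macrophage genes (y axis) after thinning to 1000 UMIs per cell, with point area in proportion to the share of the library's cells. Between 62.5% (control) and 73.4% (combination) of cells lie below the dashed line of equal counts, and every library also has cells above it.

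The cluster made up 13.5% of listed control cells (interval 12.4% to 14.6%), 26.2% of anti-PD-1 cells (24.8% to 27.7%), 19.3% of anti-CTLA-4 cells (18% to 20.7%) and 6.79% of combination cells (6.03% to 7.62%). Among the cells of the 6 myeloid clusters, the shares were 25.1%, 41.6%, 31.3% and 12.5%. Set against the control share, the log2 ratio was -0.99 in the combination library, 0.52 in the anti-CTLA-4 library and 0.96 in the anti-PD-1 library. The low combination share held when cells were reassigned to the nearest cluster average. It was then 6.01% against 14.4% in control with libraries weighted equally, and 6.89% against 13.8% with averages from the control library alone. It did not hold when all of cluster 4 was added or when marker genes replaced the cluster number. With clusters 0 and 4 joined, the combination share was 21.7% against 14.9% in control, a log2 ratio of 0.54. When thinned cells with at least 2 UMIs of Ly6c2, Plac8 and Ms4a4c together and no UMI of a Cd3 gene were taken in place of the cluster number, the shares were 26.8% and 24.7%, a ratio of 0.12. The interval of that last ratio was -0.012 to 0.25. Of the cells so chosen, 280 of 972 in the combination library sat in cluster 4, against 29 of 934 in control. Since genes that differed between libraries also shaped the clusters, no order of abundance is read from these shares.

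Between libraries, the marker genes held different patterns inside the cluster. Values of the other myeloid cells are given beside them, but that set changes its make-up: cluster 1 held 1075 of its 1521 control cells and 254 of its 1868 combination cells, and cluster 4 held 55 and 589. Plac8 was lowest in control, at 2326 CPM, and stood at 3344 to 3780 CPM in the other libraries. Its log2 ratios to control were 0.52 (interval 0.47 to 0.58), 0.70 (0.64 to 0.76) and 0.59 (0.52 to 0.67), against 0.59, 0.81 and 1.11 in the lymphoid clusters, so this gene differed in cells of other lineages as well. The other myeloid cells held 576, 1061, 1312 and 986 CPM of Plac8, also lowest in control. Ly6c2 measured 670, 1011, 1531 and 949 CPM, with the largest ratio to control in the anti-CTLA-4 library (1.19, interval 1.09 to 1.29). In the lymphoid clusters the Ly6c2 ratios were 0.03, -0.17 and 0.07. The other myeloid cells held 191, 450, 636 and 645 CPM of it, also lowest in control. Ly6i measured 1597, 2118, 2534 and 2280 CPM and was likewise highest with anti-CTLA-4. In the other myeloid cells Ly6i measured 530, 1388, 1402 and 1727 CPM, highest in the combination library. Iigp1 measured 503, 836, 648 and 601 CPM, highest with anti-PD-1 (0.73, interval 0.62 to 0.85). In the other myeloid cells it measured 307, 547, 370 and 267 CPM, also highest with anti-PD-1. Ms4a4c measured 1182, 1376, 1129 and 856 CPM and Ifitm3 measured 4603, 4685, 4105 and 3623 CPM, both lowest in the combination library. The same held in the other myeloid cells, at 649, 662, 550 and 274 CPM of Ms4a4c and 2137, 2514, 2221 and 1784 CPM of Ifitm3. Il1r2, at 411, 217, 251 and 111 CPM, was highest in control, with log2 ratios of -0.92 (-1.08 to -0.76), -0.71 (-0.88 to -0.54) and -1.88 (-2.24 to -1.55). The other myeloid cells held 107, 45.6, 49.0 and 20.5 CPM of Il1r2, also highest in control. After thinning, an Il1r2 UMI was seen in 23.1%, 14.4%, 16.9% and 7.03% of members and in 1.63% to 4.78% of cells in the T cell clusters.

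The anti-PD-1 library was compared with control over 5817 genes that had at least 50 UMIs over both sides. Of these, 174 (2.99%) were at least 2-fold higher and 112 (1.93%) at least 2-fold lower, 4.92% in all, and 54.7% had a ratio above 0, with a median of 0.04. Genes were ranked among the 2522 that also had at least 50 CPM on the higher side, and the later rankings used the same rule. The chemokine Ccl24 led the list, followed by Arg1, Inhba, Pdcd1lg2, Ccl8, Ccl4, Chil3 and Tfec. The lowest ratios were those of Raet1e, Cd81, Cd72, AI839979, Gpr137b, Ntpcr, Bambi and Pf4. Without the cell that contributed most UMIs of each gene, 75 genes were higher and 39 lower past 2-fold.

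Ccl24, which attracts eosinophils, measured 8.40, 652, 87.6 and 110 CPM in cluster 0. It was near absent in control and highest with anti-PD-1, a log2 ratio of 6.23 (interval 5.53 to 7.15). In the anti-PD-1 library 19.8% of members held a Ccl24 UMI, against 1.57% in control. The other myeloid cells held 4.10, 928, 291 and 109 CPM and the lymphoid clusters 0.595, 46.5, 9.69 and 9.64 CPM, both also lowest in control and highest with anti-PD-1. After thinning, a UMI was seen in 14.1% of anti-PD-1 members and in 2.24% of cells in the T cell clusters of that library. Arg1 measured 57.6, 376, 185 and 555 CPM, all above control, with log2 ratios of 2.70 (2.40 to 3.02), 1.68 (1.35 to 2.02) and 3.26 (2.94 to 3.60). Chil3, a chitinase-like secreted protein, measured 78.0, 272, 289 and 512 CPM and was likewise lowest in control. Arg1 in the other myeloid cells measured 419, 1970, 1496 and 4048 CPM, and in the lymphoid clusters 29.5, 67.2, 38.4 and 204 CPM. The part that RNA from those cells plays in the cluster 0 levels was not tested.

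Ligands of the checkpoint receptor were higher in all 3 antibody libraries. Pdcd1lg2, which encodes PD-L2, measured 16.2, 64.5, 68.3 and 59.7 CPM, with log2 ratios of 1.97 (1.4 to 2.63), 2.05 (1.47 to 2.73) and 1.87 (1.15 to 2.63). Its level in the lymphoid clusters was 50, 44.8, 38.1 and 33.2 CPM, below control in each antibody library. Cd274, which encodes PD-L1, measured 110, 234, 203 and 208 CPM, ratios of 1.09, 0.88 and 0.92. Its ratios were also above 0 in the other myeloid cells (1.49, 1.78 and 1.72) and in the lymphoid clusters (0.75, 0.79 and 1.02). These 2 genes are on the list of inflammatory effectors and checkpoint ligands, of which 13 of 16 were above control with anti-PD-1 and 4 past 2-fold (median 0.47). In the other myeloid cells 15 of the 16 were above control (median 1.09), and in the lymphoid clusters 11 were (median 0.51). Inhba, a subunit of activin, measured 13.8, 71.4, 47.9 and 33.3 CPM. Nos2, the inducible nitric oxide synthase, stayed at 13.9 to 22.2 CPM and each of its intervals against control included 0.

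**Figure D3:**
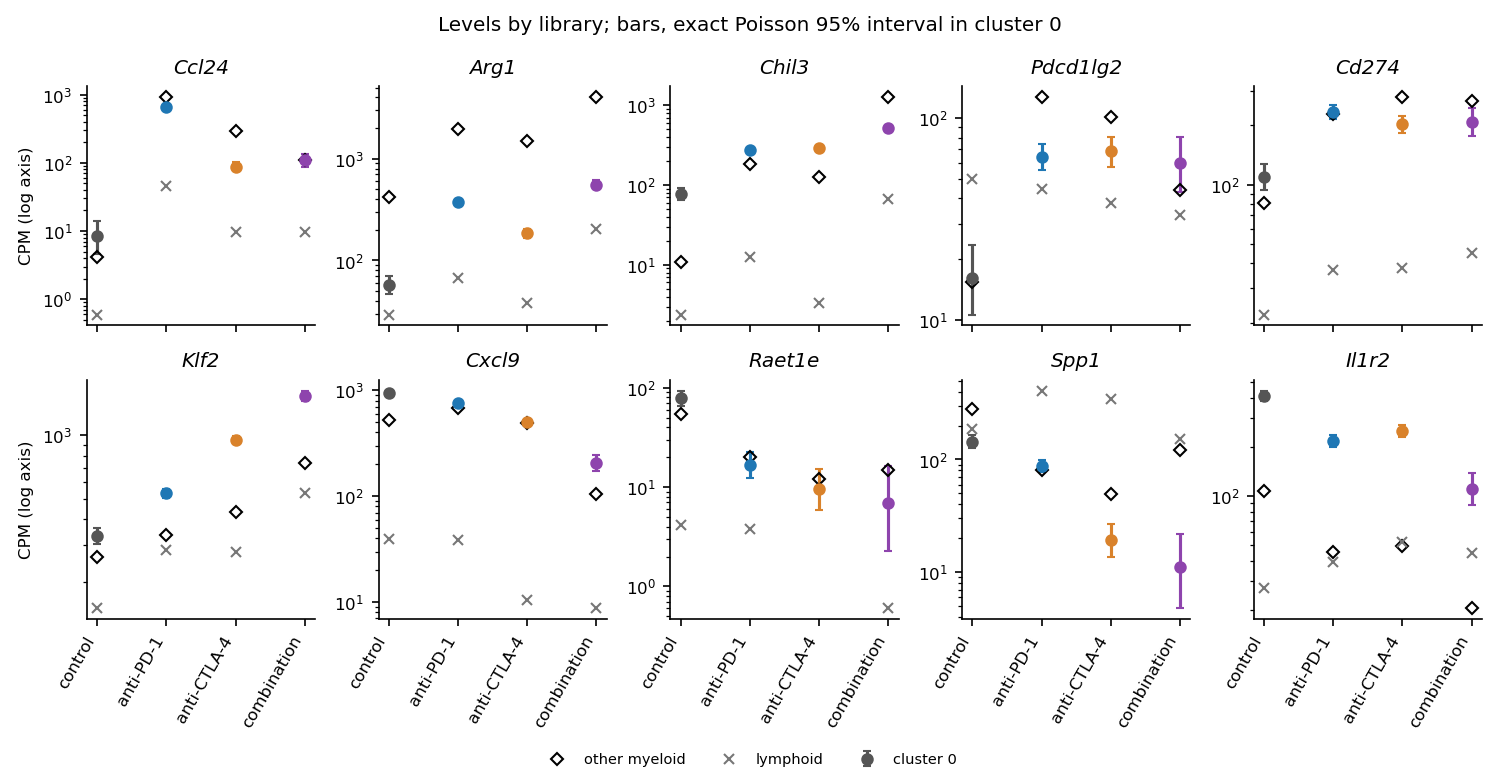
Levels by library (CPM, log axis) of the genes the comparisons turn on, in cluster 0 with exact Poisson intervals, in the other myeloid clusters and in the lymphoid clusters. Klf2 is lowest in control and highest in the combination library in all 3 cell sets, and Cxcl9 is lowest in the combination library in each. A level of 0 (Raet1e in the anti-CTLA-4 lymphoid clusters) has no place on the log axis.

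All 16 measured GTPase genes were above control in the anti-PD-1 library, with log2 ratios of 0.40 to 1.26 and a median of 0.61, and 1 (Gm4951) was past 2-fold. Igtp measured 256, 337, 276 and 305 CPM and Irgm1 175, 251, 227 and 236 CPM, and Gbp2, of 334, 521, 347 and 350 CPM, had the anti-PD-1 ratio 0.64 (0.50 to 0.78). The control level was the lowest of the 4 for each of these 3 genes. With anti-CTLA-4, 14 of 16 were above control (median 0.18), and with the combination 12 of 16 (median 0.13). The same list in the other myeloid cells had medians of 0.77, 0.47 and -0.01, and in the lymphoid clusters of 0.10, -0.34 and -0.19. Irf1, a transcription factor that interferon-γ induces, measured 140, 298, 180 and 125 CPM, with the ratio 1.09 (0.88 to 1.30) for anti-PD-1. Type I interferon-induced antiviral genes were split in the anti-PD-1 library, 19 of 27 above and 8 below control (median 0.25). In the other myeloid cells 26 of these were above control (median 0.22), and in the lymphoid clusters 15 (median 0.05). All 18 genes of class I presentation were above control with a median of 0.24. In the other myeloid cells all 18 were above control too (median 0.39), and in the lymphoid clusters 7 were (median -0.0055). Psmb8, a subunit of the immunoproteasome, measured 1447, 1769, 1789 and 1707 CPM, and the peptide transporter Tap1 measured 272, 375, 378 and 413 CPM.

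**Figure D4:**
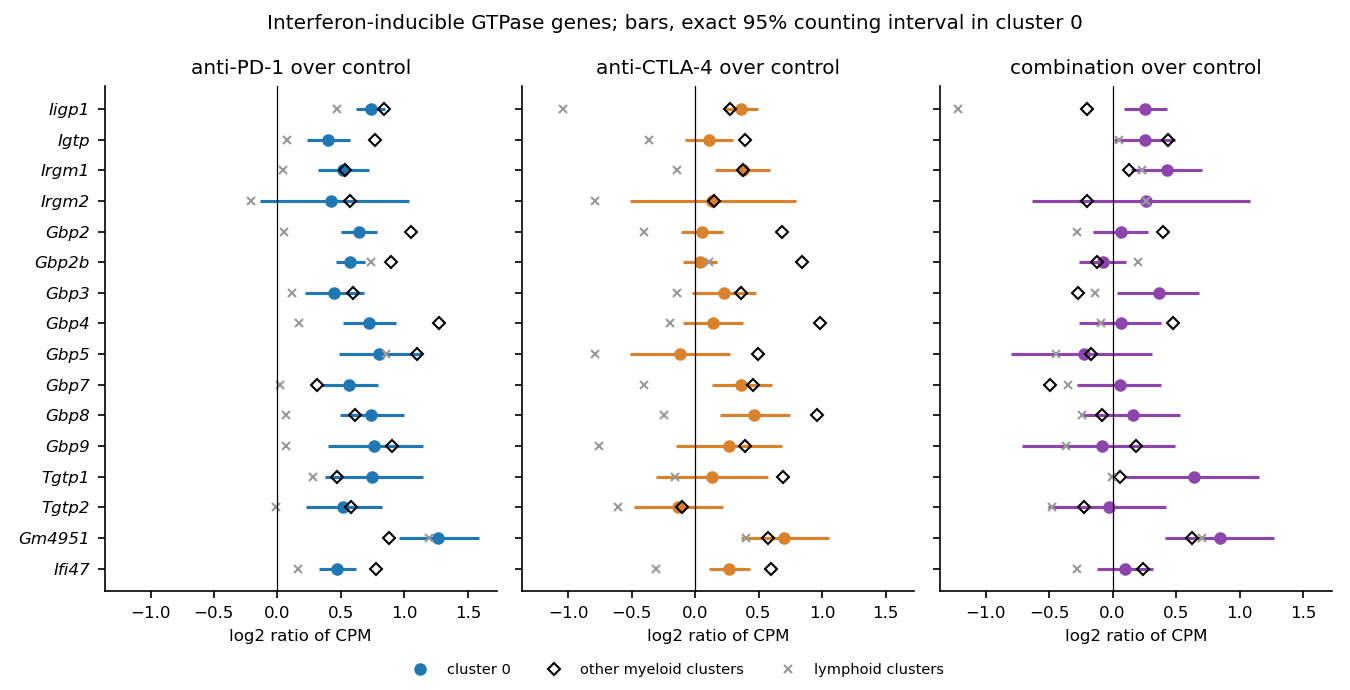
Log2 ratio to control of each interferon-inducible GTPase gene in the 3 antibody libraries, for cluster 0 with exact intervals, the other myeloid clusters and the lymphoid clusters. Of the cluster 0 points, 12 lie above 0 in the combination library, 14 in the anti-CTLA-4 library and 16 in the anti-PD-1 library.

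Genes below control in the anti-PD-1 library included ligands and surface molecules. Raet1e, a ligand of the NK cell receptor NKG2D, measured 79.2, 16.8, 9.68 and 6.94 CPM, with log2 ratios of -2.22 (-2.75 to -1.74), -3.00 (-3.81 to -2.33) and -3.38 (-5.16 to -2.25). Control was the highest library in each of the other myeloid and lymphoid cell sets too. The tetraspanin Cd81 measured 104, 22.3, 24.5 and 31.9 CPM and Cd72, a surface lectin also found on B cells, 103, 31.9, 60.1 and 16.6 CPM. All 22 cytosolic ribosomal protein genes were below control with anti-PD-1 (median -0.37) and with anti-CTLA-4 (median -0.23). Rps18 measured 2699, 1886, 2043 and 2478 CPM. In the other myeloid cells this list had medians of -0.43, -0.31 and -0.32, and in the lymphoid clusters of -0.0050, 0.15 and 0.09. Of 11 S100, lysozyme and antimicrobial genes above control with anti-PD-1 (of 13), 2 were past 2-fold, and of 22 glycolysis and hypoxia genes 18 were above control (median 0.21). Of the same 22 genes, 21 were above control in the other myeloid cells (median 0.78) and 14 in the lymphoid clusters (median 0.10).

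The anti-CTLA-4 library was compared with control over 5327 genes. At least 2-fold higher were 152 (2.85%) and at least 2-fold lower 119 (2.23%), 5.09% in all, and 51.5% lay above 0 (median 0.01). Ccl24, Rab27a, Pdcd1lg2, Chil3, Ccl4, Acap2, Apobec3 and Arg1 had the highest ratios. Of these 8, Acap2 had at least 50% of its UMIs in 1 cell, and Rab27a had 39.8%. The lowest ratios belonged to Raet1e, Ccl7, Spp1, Pf4, Gpr84, Ms4a7, Cd81 and Ccl2. Without the top cell of each gene, 57 genes were higher and 59 lower past 2-fold.

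Chemokines were split in this library. Ccl2, the ligand of Ccr2, measured 236, 141, 62.2 and 345 CPM, lowest with anti-CTLA-4 (log2 ratio -1.92, interval -2.23 to -1.63). Ccl7, which binds the same receptor, measured 137, 57.9, 18.3 and 36.1 CPM, and control stood above the other 3. Spp1, which encodes osteopontin, measured 144, 87.5, 19.4 and 11.1 CPM, but the lymphoid clusters held 187, 409, 348 and 153 CPM of it, more than cluster 0 in every library. Ccl4, which attracts T cells and NK cells, measured 73.2, 262, 239 and 175 CPM and was higher in each antibody library than in control. Of 15 measured chemokines 6 were above and 9 below control, 3 and 4 of them past 2-fold. Macrophage markers were below control in 12 of 16 (median -0.14), with Ms4a7 at 155, 80.2, 34.6 and 88.8 CPM. The same markers had a median of -0.38 in the other myeloid cells (1 above, 15 below) and of -1.19 in the lymphoid clusters (0 above, 16 below). Of 11 Fc and scavenger receptors 9 were below control (median -0.51), among them Msr1, the class A scavenger receptor, at 435, 331, 224 and 182 CPM. The same receptor list had a median of -1.21 in the lymphoid clusters and -0.12 in the other myeloid cells.

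Cxcl9, the interferon-γ-induced chemokine that attracts T cells through Cxcr3, followed another order than the GTPases. It measured 948, 760, 501 and 207 CPM, highest in control and lowest in the combination library, with log2 ratios of -0.32 (-0.41 to -0.22), -0.92 (-1.04 to -0.80) and -2.19 (-2.45 to -1.95). In the other myeloid cells the ratios were 0.41, -0.08 and -2.31. Cxcl10, another ligand of that receptor, measured 286, 285, 182 and 142 CPM. C5ar1, the receptor for complement C5a, measured 251, 112, 97.3 and 146 CPM, and control was again the highest.

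The combination library was compared with control over 4250 genes, fewer because of its 720767 UMIs. At least 2-fold higher were 128 (3.01%) and at least 2-fold lower 136 (3.2%), 6.21% in all, and 48.1% lay above 0 (median -0.02). The highest ratios were those of Ampd3, Ccl24, Dmxl2, Arg1, BC018473, S100a9, Exoc4 and Chil3, and 4 of these 8 had at least 50% of their combination UMIs in 1 cell. All Ampd3 UMIs of that library came from a single cell. Without the top cell of each gene, 33 of 3945 genes were 2-fold higher and 98 were 2-fold lower. Ccl24, Arg1, BC018473, Chil3 and Klf2 then led. A single cell is a larger part of the 268 combination cells than of the 511 control cells. Leaving top cells out therefore lowers the combination side more, and the balance of higher and lower genes is not read. With all cells, the lowest ratios were those of Spp1, Raet1e, Cd72, Gpr84, Fdps, Cxcl9, AI839979 and Ccl7.

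Klf2, a transcription factor of quiescent leukocytes and endothelium, measured 333, 529, 948 and 1534 CPM. The 4 intervals did not overlap, and the combination was highest, with log2 ratios to control of 0.67 (0.53 to 0.81), 1.51 (1.37 to 1.65) and 2.20 (2.06 to 2.35). A Klf2 UMI was present in 32.9%, 37.2%, 52.5% and 73.1% of members. The lymphoid clusters, which also express the gene, held 151, 284, 279 and 533 CPM. Jund, an AP-1 factor, measured 396, 486, 602 and 975 CPM. Of 15 immediate early and digestion-induced genes, 14 were above control with the combination (median 0.44), and this list had medians of 0.55 in the other myeloid cells and 0.53 in the lymphoid clusters of that library. Plin2, a coat protein of lipid droplets, measured 290, 401, 478 and 730 CPM, and Hilpda, a lipid droplet protein induced by hypoxia, 74.4, 145, 156 and 186 CPM. Both were lowest in control.

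Cd86 and Fdps were lowest with the combination. Cd86, a costimulatory ligand for T cells, measured 230, 219, 177 and 125 CPM (log2 ratio -0.88, interval -1.23 to -0.55). Fdps, an enzyme of the mevalonate pathway, measured 67.8, 37.0, 21.9 and 13.9 CPM. Class I presentation genes were above control in 14 of 18 (median 0.19), and class II genes were above in 4 and below in 7 of 11 (median -0.08). Antiviral genes were below control in 15 of 23 (median -0.16), as were 15 in the other myeloid cells (median -0.16) and 14 in the lymphoid clusters (median -0.06). S100a8, a calcium-binding protein abundant in neutrophils, measured 69.6, 119, 89.7 and 393 CPM, but 59.7% of the combination UMIs lay in 1 cell, and without the top cell its ratio was 1.4 in place of 2.49.

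**Figure D5:**
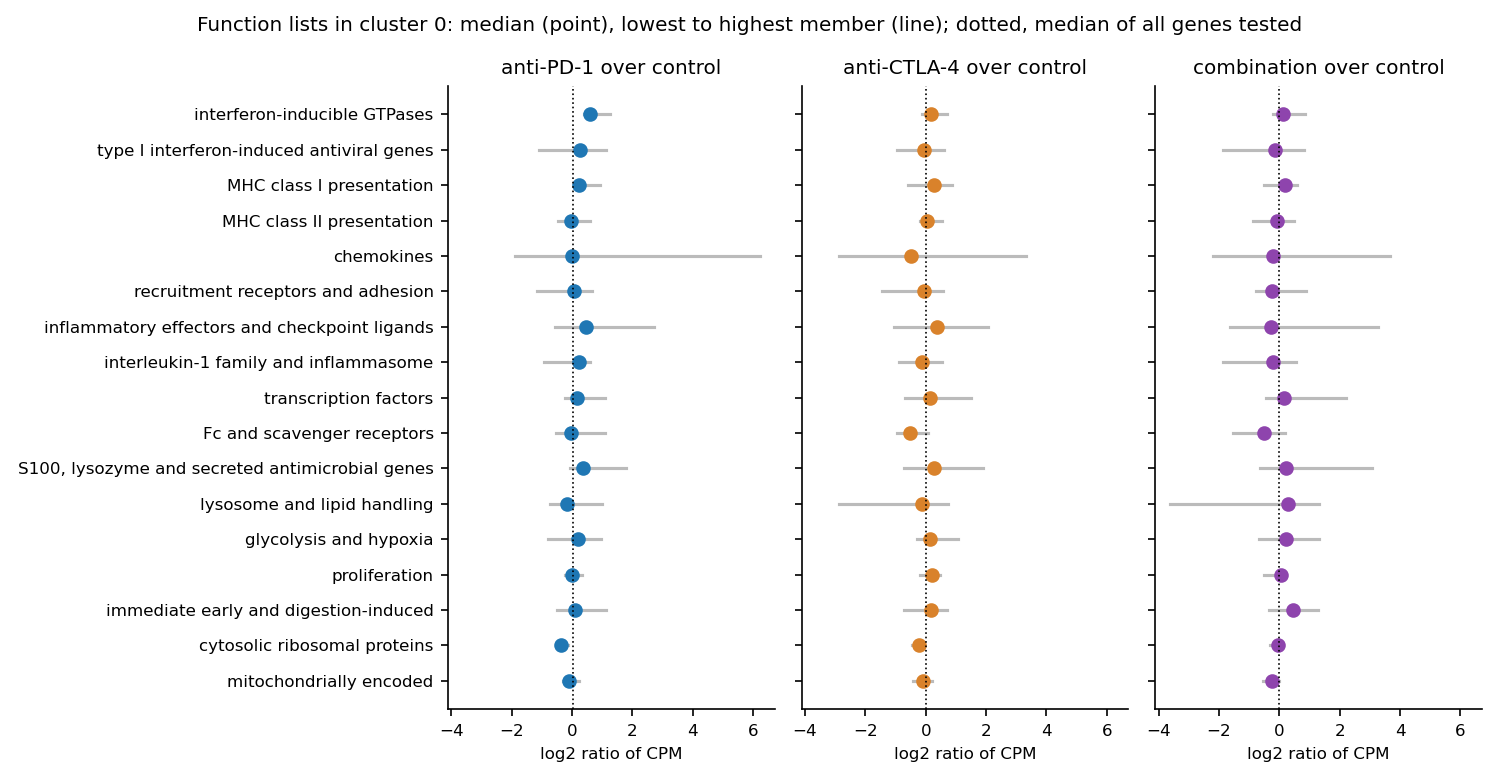
For each gene list, the median log2 ratio to control in cluster 0 (point) with the lowest and highest of its genes (line), in 1 panel per antibody library, and the median over all genes tested (dotted). The GTPase point lies at 0.13 in the combination library, 0.18 in the anti-CTLA-4 library and 0.61 in the anti-PD-1 library, and the chemokine lines are long because Ccl24 is among them (6.23 with anti-PD-1).

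The combination was also set against each single antibody. Against anti-PD-1, over 5212 genes, 140 (2.69%) were at least 2-fold higher and 218 (4.18%) at least 2-fold lower, 6.87% in all, with 44.1% above 0 (median -0.07). The 8 highest ratios (Retnla, Ampd3, Dmxl2, Exoc4, Gigyf2, S100a9, Prr3 and 2310039H08Rik) each had at least 50% of their UMIs in 1 cell. Without top cells, 39 genes were 2-fold higher and 172 2-fold lower, a setting that again lowers the combination side more. The lowest were Timp1, Spp1, Ccl24, Saa3, Gm15056, Ifi205, Cxcl9 and Grsf1. Timp1, an inhibitor of matrix metalloproteinases, measured 24.6, 72.5, 28.5 and 5.55 CPM, and the acute-phase gene Saa3 45, 104, 37.7 and 18 CPM. All 16 GTPase genes lay below the anti-PD-1 level (median -0.49), with Gbp5 past 2-fold at -1.03 (-1.56 to -0.56). The other myeloid cells had a GTPase median of -0.75 and the lymphoid clusters of -0.35. Irf1 was lower as well, at -1.25 (-1.59 to -0.94). Of 16 inflammatory effector and checkpoint genes, 15 were below, 5 of them past 2-fold (median -0.56). In the other myeloid cells 9 of these were below (median -0.09), and in the lymphoid clusters 9 (median -0.17). Of 24 antiviral genes 20 were below (median -0.47). All 24 were below in the other myeloid cells (median -0.57), and 17 in the lymphoid clusters (median -0.16). All 11 Fc and scavenger receptors lay below too (median -0.47). Of these, 9 were also below in the other myeloid cells (median -0.33) and 10 in the lymphoid clusters (median -0.60). All 22 ribosomal protein genes lay above (median 0.29). So did 21 in the other myeloid cells (median 0.14) and 20 in the lymphoid clusters (median 0.10).

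Against anti-CTLA-4, over 4588 genes, 114 (2.48%) were at least 2-fold higher and 137 (2.99%) at least 2-fold lower, 5.47% in all, with 46.6% above 0 (median -0.03). The 8 highest (Ampd3, Retnla, S100a9, Dmxl2, Prr3, Gigyf2, Exoc4 and Utp23) again each had at least 50% of their UMIs in 1 cell. Without top cells, 21 genes were higher and 84 lower past 2-fold, under the same limit. The chemokine Ccl2 then led, with a log2 ratio of 2.48. Its levels of 62.2 and 345 CPM gave 2.47 (2.16 to 2.80) with all cells. The GTPases were evenly split, 8 above and 8 below (median -0.03). Cxcl9 was below both single antibodies, at -1.87 (-2.13 to -1.64) against anti-PD-1 and -1.27 (-1.54 to -1.03) against anti-CTLA-4. The 3 comparisons with control share its library, and those of the combination share the combination library, so their ratios are given side by side and not as independent measurements.

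Markers of other cell types were summed in each library. T cell markers summed to 35.9 to 58.2 CPM, B cell markers to 1.10 to 5.40 CPM, and eosinophil markers were at 0 in all 4 libraries. NK cell markers summed to 22.2, 53.8, 34.1 and 13.9 CPM. Neutrophil markers summed to 613, 463, 488 and 821 CPM, and conventional dendritic cell markers to 87.0, 163, 148 and 153 CPM. In the neutrophil sums, Il1r2 gave 411 CPM in control, and S100a8 and S100a9 gave 393 and 112 CPM in the combination library. Most S100a8 UMIs of that library lay in 1 cell, so these sums are no measure of neutrophil content. Macrophage markers summed to 8497, 8127, 7925 and 6385 CPM, lowest in the combination library, and classical monocyte markers to 33114, 34077, 36802 and 32805 CPM. The median mitochondrial share of UMIs per cell was 0.859%, 0.812%, 0.787% and 0.688%. The part that these differences play in the comparisons was not tested.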

How the data were processed

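Single-cell 3′ RNA libraries of sorted CD45+ tumour cells were analysed, 1 library per antibody group. As deposited, the matrices hold raw UMI counts of each gene in each barcode for 27998 genes and 14618 barcodes, unnormalized per the file headers and values, and a table lists 14493 cells with a cluster number. The authors also deposited embedding coordinates per cell (score values), which were not used. Of these, 14491 had a matrix column. Cell Ranger and Seurat with the mm10 genome are named per the submitters' processing notes. The sources used here do not give their versions, the annotation or the clustering settings.

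For each cluster and library a gene's counts were added up over its cells and scaled by the total of all genes to CPM. Log2 ratios add 0.5 to each count, with exact conditional binomial intervals, levels have exact Poisson intervals and shares have Clopper-Pearson intervals, all at 95%. With 1 library per group no test across samples was possible. Genes needed 50 UMIs over both sides, and in each library for the comparison with the other myeloid clusters. Genes ranked highest or lowest also needed 50 CPM on the higher side. Named genes are the 16 key genes, the marker list members, up to 4 members of each function list with the largest ratio, and the 8 highest and 8 lowest ratios of each comparison (12 and 12 against the other myeloid clusters). Cd86, Cxcl10, Igtp and Psmb8 fall outside this rule and were chosen after their values were seen. Some genes are not reported here. Lymphoid clusters are 3, 5, 6, 8, 9 and 10, of which 5 is the NK cell cluster and the others are T cell clusters. No doublet caller was run. An alternative left out cells with a UMI of Cd3d, Cd3e, Cd3g, Cd79a, Ncr1 or Col1a1 and the deepest 3%. Gbp6 and Itgam were left out because 2 gene identifiers share each symbol. Near-identical paralogs (Tgtp1 and Tgtp2, Ly6 and Gbp genes) may exchange reads. Promoters are from RefSeq, build GRCm38.p6. The members and gene lists were chosen with earlier results of these data known. The ratio code was tested on simulated data. Tools were Python 3.11.15, numpy 2.4.6, scipy 1.17.1, pandas 2.3.3 and matplotlib 3.10.9.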

Additional observations from a re-analysis of the deposited data

Results flagged for a closer look

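For 8 of the gene and library pairs examined, the ratio to control had opposite signs in cluster 0 and in the other myeloid clusters. Their counting intervals lay on opposite sides of 0. Only the key genes were examined, in each antibody library against control. The share of all genes with such opposite signs was not computed, so 8 cannot be called many or few. Each of these pairs rests on 1 library per group, and the difference was not tested. The other myeloid cells also sit in different clusters in each library: cluster 1 held 1075 of 1521 such cells in control and 254 of 1868 in the combination library. Ccr2 gave the largest gaps. With anti-CTLA-4 its log2 ratio was 0.30 in cluster 0 and -0.73 in the other myeloid clusters, and with the combination it was 0.36 and -0.97. The interferon-γ-induced chemokine Cxcl9 in the anti-PD-1 library stood at -0.32 in cluster 0 and at 0.41 in the other myeloid clusters. The cytokine Il1b stood at -0.25 and 0.40 with anti-PD-1 and at -0.38 and 0.20 with the combination. Iigp1 with the combination stood at 0.26 and -0.20. Small gaps of the same kind were seen for Ifitm3 with anti-CTLA-4, at -0.17 and 0.06, and for H2-Ab1 with anti-PD-1, at -0.03 and 0.04.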

How the results depend on the processing

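No paired analysis was possible because each group is 1 library and no result comes from a test. Depth limits the combination values most, and a gene under 50 UMIs over both sides was not compared. Median-of-ratios scaling moved 9 of 1523 gene and list values and turned 0, and a pseudocount of 1 moved 0. Of the genes, only those at least 2-fold apart in the main setting could be counted as turned. Of the lists, only those with a median clearly off 0 and most members on 1 side could. List medians near 0, such as those of classical monocyte genes between libraries, could not be counted as turned. Other settings moved more: joining clusters 0 and 4 moved 564 of 1465 and turned 8, thinning moved 323 of 1515 and turned 1, the nearest average moved 203 of 1465 and turned 6, and weighting cells equally moved 134 of 1465. The cause of the moves below was not tested unless the setting itself shows it.

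The share ratio of anti-PD-1 to control was 0.66 with cells reassigned to the nearest cluster average, 0.75 with averages from the control library alone, 1.17 with clusters 0 and 4 joined, 0.79 with the marker gate, and 0.73 both with myeloid cells as the denominator and without likely doublets, a setting that also removes most T cells from the denominator. For anti-CTLA-4 the ratio was 0.23 (nearest average), 0.87 (joined), 0.32 (myeloid denominator) and 0.28 (without likely doublets). For the combination it was -1.26 (nearest average), and it turned to 0.54 (joined) and 0.12 (marker gate).

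Counts of genes past 2-fold depend on the count filter. With at least 20 UMIs, 304 genes were higher and 251 lower for anti-PD-1, 294 and 291 for anti-CTLA-4, 287 and 371 with both antibodies, 295 and 437 for the combination against anti-PD-1, and 254 and 333 against anti-CTLA-4. With at least 1 UMI these counts were 1012 and 1523, 1593 and 1610, 1641 and 1406, 1584 and 1037, and 1466 and 1027. With cells thinned to 1000 UMIs, which leaves fewer genes past the filter, they were 77 and 39, 66 and 53, 39 and 54, 55 and 128, and 36 and 57. With clusters 0 and 4 joined, the combination had 198 higher and 217 lower. Leaving out, for each gene, the cell of each library with most of its UMIs was chosen after seeing the data. This setting weighs most on the combination library, which has the fewest cells. It gave 75 and 39 for anti-PD-1, 57 and 59 for anti-CTLA-4, 33 higher for the combination, 39 higher against anti-PD-1, and 21 and 84 against anti-CTLA-4. Against the other myeloid clusters, 82 genes were higher and 292 lower with at least 20 UMIs, 33 and 82 after thinning, and 52 were lower than in cluster 4 alone.

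Some single values turned direction. With clusters 0 and 4 joined, Cxcl3 stood at 0.10 for anti-PD-1, Pf4 at 0.41 for the combination, and Cd63 at 0.34, Inhba at 0.69 and Spp1 at 0.48 for the combination against anti-PD-1. The proliferation list for anti-CTLA-4 then stood at -0.11, and at -0.28 with at least 1 UMI. The non-classical monocyte list then stood at -0.48 for the combination and -0.22 against anti-CTLA-4. Acap2 for anti-CTLA-4 was -0.21 without likely doublets and -0.035 without its top cell. Ampd3 for the combination was -1.25 with the nearest average and -1.11 without its top cell, against anti-PD-1 it was -2.0 and -2.60, and against anti-CTLA-4 -2.26 and -1.36. Without the top cell, Dmxl2 was -0.093 for the combination and -0.24 against anti-PD-1, and Prr3 was -0.11 against anti-PD-1. With the nearest average, Ccl17 was 0.23 against anti-PD-1, Exoc4 was -0.012 and Retnla -0.0014 against anti-CTLA-4. Against cluster 4 alone, Ccl12 was 1.97, Ccl7 was 0.63, the neutrophil list -0.31, the S100 list -0.27 and the proliferation list 0.25. After thinning the proliferation list was 0.021 against the other myeloid clusters.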
